A study of Mus musculus with 16 samples.

Results

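Divergent protein-coding promoter pairs are places where 2 protein-coding genes start back to back, on opposite strands, and are transcribed away from each other. The members here were 673 autosomal bait fragments, out of 18165 baits in the whole series and 17708 on autosomes. A bait is a HindIII restriction fragment that was captured because it overlaps a promoter. A bait was a member when it held the starts of 2 protein-coding genes (GENCODE vM1, mouse build mm9) with the minus-strand start at the lower coordinate and the plus-strand start within 1 kb of it. The 673 fragments held 689 such pairs, because 16 fragments held 2 pairs, and the pairs comprised 1363 distinct genes. Membership needs a fragment to be listed as a bait, so every member had at least 1 contact, and the number of contacts and their timing were not used to choose members.

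Contacts came from Promoter Capture Hi-C (P-CHi-C), in which chromatin is crosslinked in the nucleus, cut with HindIII and religated, and ligation products holding a promoter are pulled out with RNA probes and sequenced. Livers of male C57BL/6 mice, 8 weeks old, labelled wild type, fed ad libitum under alternating 12 h periods of light and darkness, were taken at ZT0 (lights on), ZT6, ZT12 (lights off) and ZT18. All groups share strain, sex, age and genotype, and differ in the time of day alone. Livers were combined in pools of 2, with 3 pools per time of day, and the extra lane of pool A brings the samples to 16, but the authors merged the pools of a timepoint before contacts were called, so each timepoint is 1 list of between 146262 and 154775 contacts with a CHiCAGO score of at least 5. Timepoints therefore have no replicate error, no difference between them was tested, and intervals below are 95% intervals for counting error only. The lists hold no expression values, so the labelled tissue was not set against marker genes. In a table of the study, the list sizes found here under the labels ZT6, ZT12 and ZT18 stand at ZT18, ZT6 and ZT12. The sample labels were followed here.

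Back-to-back gene pairs of this kind are often called bidirectional promoters. They usually lie in CpG islands, lack a TATA box and drive broadly expressed genes of DNA repair, mitochondria and the cell cycle, with a nucleosome-depleted region loading a polymerase in each direction. A shared promoter couples 2 genes in linear DNA, and P-CHi-C asks which further fragments such a promoter meets in the nucleus.

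The DNA that lies between the paired starts is short enough to print for many members. The sequences shown belong to well-known head-to-head pairs and to pairs in which both genes are on the study's circadian list. Only pairs with a short stretch between the starts were eligible, so its shortness here was set by that choice. The sequences show how motif content differs between these pairs. Each is the plus strand of mm9 from the base after the minus-strand start to the base before the plus-strand start. Capitals mark matches, on either strand, to the letters CCAAT (bound by NF-Y), GGGCGG (bound by SP1) or CCGGAAG (bound by ETS factors).
Hadha/Hadhb, chr5:30481703-30481787: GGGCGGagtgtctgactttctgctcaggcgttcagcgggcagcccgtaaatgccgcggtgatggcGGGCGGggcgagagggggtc
Mrps12/Sars2, chr7:29526840-29527009: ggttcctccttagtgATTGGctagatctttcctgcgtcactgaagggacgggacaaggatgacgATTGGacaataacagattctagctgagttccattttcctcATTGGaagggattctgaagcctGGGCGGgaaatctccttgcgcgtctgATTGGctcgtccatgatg
Erp44/Invs, chr4:48292431-48292631: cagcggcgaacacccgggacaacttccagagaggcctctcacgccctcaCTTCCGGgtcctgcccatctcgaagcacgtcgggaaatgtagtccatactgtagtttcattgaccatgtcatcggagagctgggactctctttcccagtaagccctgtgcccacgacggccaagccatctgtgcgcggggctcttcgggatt
Dak/Ddb1, chr19:10679923-10680057: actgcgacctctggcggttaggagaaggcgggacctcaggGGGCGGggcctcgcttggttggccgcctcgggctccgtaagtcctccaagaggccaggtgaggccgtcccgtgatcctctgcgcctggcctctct
2610024G14Rik/Polr2b, chr5:77739110-77739171: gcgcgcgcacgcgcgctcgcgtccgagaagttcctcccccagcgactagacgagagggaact
Hadha and Hadhb encode the alpha and beta subunits of the mitochondrial trifunctional protein of fatty acid oxidation, so this stretch of 85 bases lies between the starts of the genes for both subunits of 1 enzyme. It held the SP1 letters at 2 places, 1 of them at its first base. Mrps12 (a protein of the mitochondrial ribosome) and Sars2 (the mitochondrial seryl-tRNA synthetase) were separated by 170 bases with the NF-Y letters at 4 places. The 201 bases between Erp44, a chaperone of the endoplasmic reticulum, and Invs, a protein of the primary cilium, held the ETS letters at 1 place. Between Dak (triokinase) and Ddb1 (a DNA damage-binding protein) lay 135 bases with 1 SP1 match. The 62 bases before Polr2b, a large subunit of RNA polymerase II, held none of these letters and had a G+C content of 69.4%.

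Most pairs were packed tightly. The median distance between paired starts was 135 bases (quartiles 69 and 266, range 1 to 969), 263 of the 689 pairs (38.2%) were within 100 bases and 553 (80.3%) within 300 bases, while 61 (8.85%) were over 500 bases apart. The annotation held 789 such pairs on autosomes. HindIII cut 32 of them apart, 757 lay on 1 fragment, and 68 of these lay on a fragment that was not a listed bait, which leaves the 689. Just inside the limit was Abhd14a/Abhd14b (962 bases, 44 contacts), and just outside it were Atg14/Gm6616 (1008 bases, 1 contact) and 9130011J15Rik/Tmem38a (1015 bases, 29 contacts). On 625 members the 2 paired genes were among exactly 2 protein-coding starts, and 48 members held between 3 and 5.

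**Figure D1:**
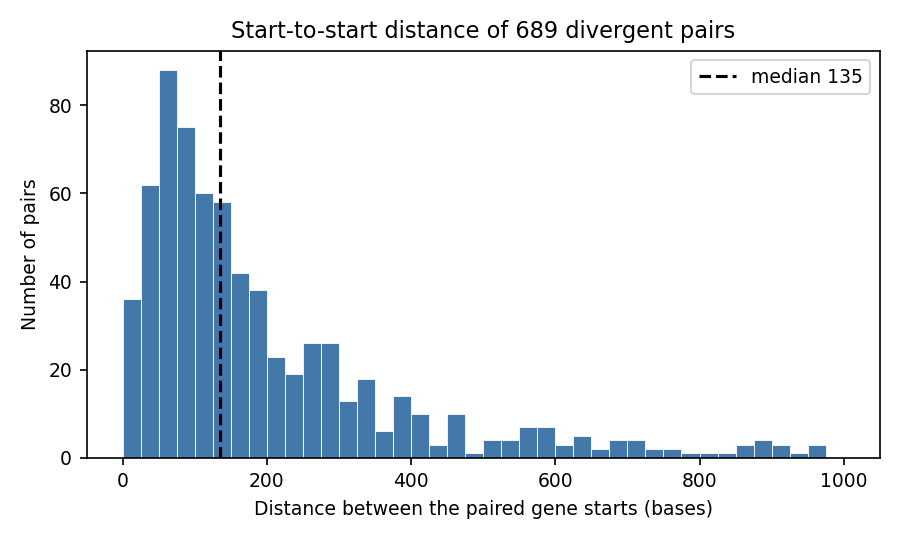
Number of divergent pairs (vertical axis) by distance between the paired gene starts in bases (horizontal axis, bins of 25 bases) for all 689 pairs, with the median of 135 bases as a dashed line. Most pairs lie at the left, 553 of them within 300 bases.

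Which genes started in such pairs differed widely between gene groups. Of all 16455 protein-coding genes with a start on an autosomal bait, 8.28% (7.87 to 8.71%) were in a divergent pair. The share was above that range, with its own interval clear of it, for genes of DNA replication and repair (26 of 93, 28.0%, 19.9 to 37.8%), replication histones (17 of 58, 29.3%), RNA polymerase subunits (8 of 26, 30.8%), chaperonins (4 of 11, 36.4%, 15.2 to 64.6%), the respiratory chain and ATP synthase (21 of 83, 25.3%) and the mitochondrial ribosome (16 of 70, 22.9%). The symbol match for the respiratory chain also took Cox4nb and the assembly factor Ndufaf2. It was near the overall share for the proteasome (6 of 49, 12.2%), aminoacyl-tRNA synthetases (5 of 35, 14.3%) and the cytosolic ribosome (8 of 99, 8.08%), whose intervals all held it. Zinc finger genes of the Zfp series gave 15 of 275 (5.45%, 3.33 to 8.80%). No gene among 105 with Apo, Serpin, Cyp1 to Cyp4 or Ugt symbols was in a divergent pair (up to 3.53%). These symbols were the list for secreted liver proteins and liver enzymes, and they do not cover all such genes. Hadha and Hadhb, for example, are outside the list and form a divergent pair. None of 607 olfactory receptors was in a divergent pair (up to 0.629%). Tandem gene families copy their members side by side, so genes of a list are not independent of each other.

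**Figure D2:**
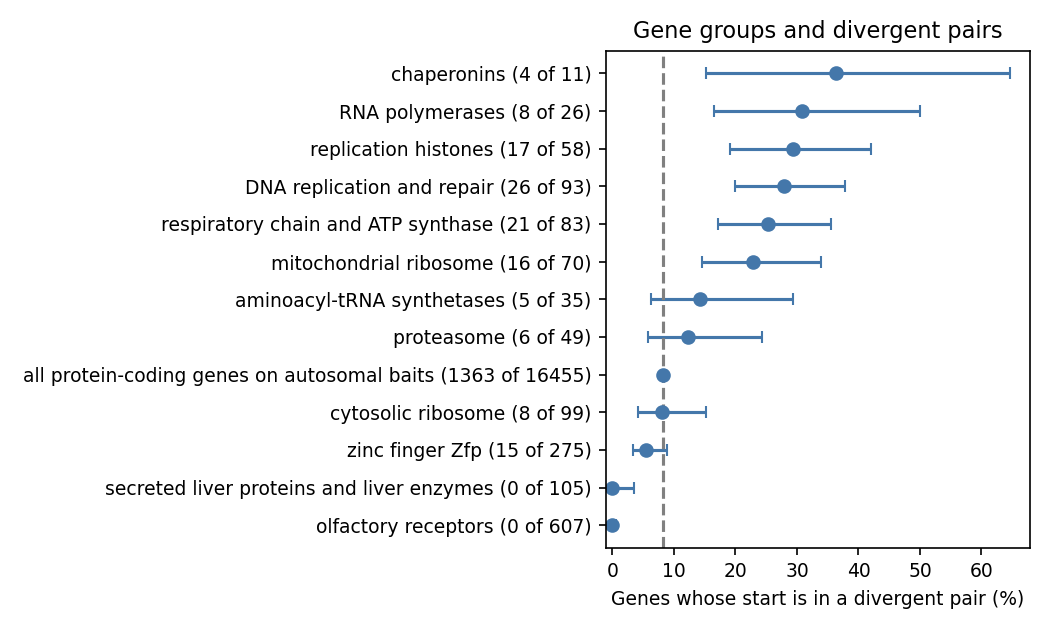
Share of each gene list whose start is in a divergent pair (percent, horizontal axis), with points for the share and bars for 95% Wilson intervals, and the dashed line at the share of all protein-coding genes (8.28%). The intervals of the 6 lists from chaperonins to the mitochondrial ribosome lie wholly right of the line. Aminoacyl-tRNA synthetases and the proteasome have points right of the line and intervals that cross it. The list of secreted liver proteins and liver enzymes (Apo, Serpin, Cyp1 to Cyp4 and Ugt symbols) and the olfactory receptors lie at 0.

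With 1 exception, repair genes were paired with a gene from outside their list. The 26 DNA replication and repair genes lay on 25 members, because Mcm4 (a subunit of the replicative helicase) and Prkdc (the DNA-dependent protein kinase) face each other across 466 bases. Pms1 and Pms2, which act in mismatch repair, were paired with Ormdl1 and Aimp2, at 77 and 117 bases. Base excision repair gave Toe1/Mutyh (83 bases), Tsc2/Nthl1 (53 bases) and Neil1/Gm16493 (58 bases). The kinases Atm and Chek2 of the DNA damage response were paired with Npat, an activator of histone genes (307 bases), and Hscb (240 bases). Over all lists, 10 of the 689 pairs had both genes in the same list, most of them histone pairs.

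The windows around the starts carried the marks of CpG island promoters. In the 300 bases from 250 before to 50 after each start, the median G+C content was 63.0% at the 1363 member starts and 56.7% at the 15092 other protein-coding starts on autosomal baits, and the ratio of observed to expected CpG was 0.858 against 0.586. A G+C content over 50% with a ratio over 0.6 was found in 84.7% of member windows (82.7 to 86.5%) and 45.4% of others (44.6 to 46.2%). The ETS letters CCGGAAG, searched on both strands, were in 29.3% of member windows (27.0 to 31.8%), in 11% of others and in 12.5% of all 16455. The TATA box letters TATAAA showed the opposite, with 3.89% (2.99 to 5.05%) against 12.1%, and 11.4% of all. The SP1 letters GGGCGG were in 68.2% against 47.8% (all 49.4%), the NF-Y letters CCAAT in 42.2% against 36.4% (all 36.9%), the NRF1 letters (GCGC on either side of AT) in 3.6% against 1.28% (all 1.47%), and the E-box letters CACGTG in 10.9% against 8.30% (all 8.52%).

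Within CpG-rich windows members no longer had more SP1 letters, with overlapping intervals, and the ETS difference stayed. Among the 1154 member and 6850 other windows past both CpG limits, SP1 letters were in 73.7% (71.0 to 76.1%) against 77.0% (76.0 to 78.0%), ETS letters in 32.5% (29.9 to 35.3%) against 18.4% (17.5 to 19.3%), TATA box letters in 2.25% (1.54 to 3.28%) against 5.11% (4.61 to 5.66%), NRF1 letters in 3.99% against 2.50%, NF-Y letters in 41.9% against 36.1%, and E-box letters in 11.8% against 11.6%. The windows of a pair overlap where the starts are close, so 1 match can count for both genes: ETS letters were in at least 1 window of 232 of the 689 pairs (33.7%) and in both windows of 171 (24.8%). These matches describe letters in a window and are no measurement of binding.

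**Figure D3:**
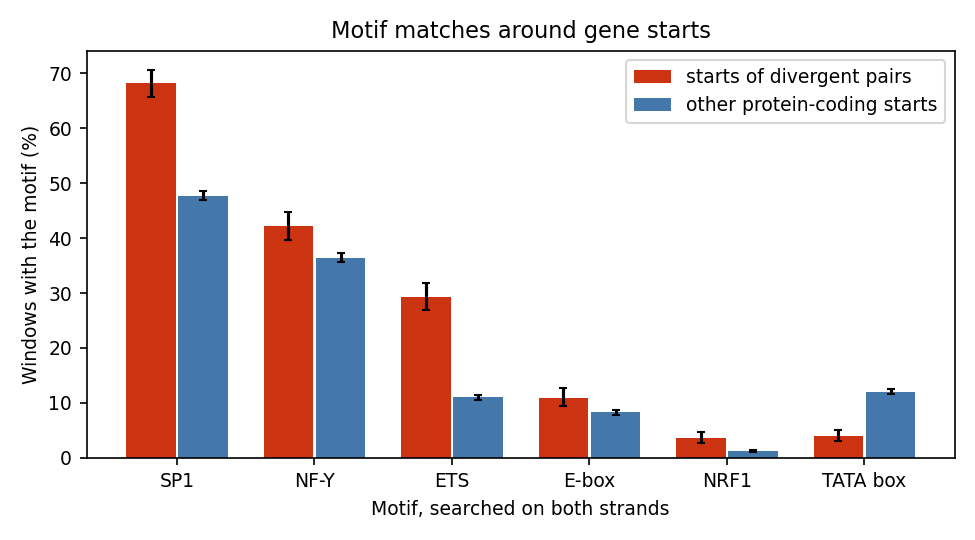
Share of 300-base windows around gene starts (percent, vertical axis) that hold each motif's letters on either strand, for 1363 starts of divergent pairs (red) and 15092 other protein-coding starts on autosomal baits (blue), with 95% Wilson intervals as bars. ETS letters are at 29.3% against 11% and TATA box letters at 3.89% against 12.1%.

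Divergent pairs were listed with more contacts than baits with 1 protein-coding start. Contacts were counted over the union of the 4 lists and from both ends, so that a contact between baits counts for each of them. The median number of distinct contacts was 12 per divergent bait (11 to 13, quartiles 5 and 26, range 1 to 202) and 9 (9 to 10) for the 13151 baits with 1 protein-coding start. The 912 baits with several protein-coding starts but no divergent pair had a median of 11 (10 to 12), which overlaps the divergent interval, and the 2972 baits with no protein-coding start had 7. Few contacts were less common among divergent baits: 170 of 673 (25.3%, 22.1 to 28.7%) had 5 or fewer, against 34.3% (33.5 to 35.1%) of baits with 1 start and 26.2% (23.5 to 29.2%) of those with several starts but no such pair. At least 1 contact with a score of 10 or more was listed for 476 members (70.7%, 67.2 to 74.0%) for 60.9% (60.1 to 61.8%) of baits with 1 start and for 69.0% (65.9 to 71.9%) of those with several, so on both measures the intervals of divergent and several-start baits overlapped. Of the members, 609 (90.5%) had a contact at every timepoint, 64 lacked one at 1 timepoint or more, and 20 had 1 contact in all.

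Fragment length and gene density moved with class and were therefore held apart. Divergent baits had a median length of 6.5 kb, baits with 1 start 5.79 kb, and baits with several starts 9.47 kb. In fragments under 4 kb the divergent and 1-start medians were 12.5 (11 to 16) and 10 (10 to 11), in fragments of 4 to 10 kb 11 (9 to 12) and 9 (9 to 10), and in longer fragments 14 (10 to 16) and 8 (7 to 9), so the intervals met or overlapped in the shorter bins and were apart over 10 kb. By the number of protein-coding starts within 500 kb, divergent and 1-start medians were 10 (8 to 12) and 8 (8 to 9) in the sparsest group of baits, 11 (10 to 15) and 9 (8 to 9) in the middle group, and 15 (12 to 17) and 12 (11 to 12) in the densest, with intervals apart in the middle group alone. In these 6 bins, taken 1 factor at a time, the divergent median was above that of baits with 1 start. With both factors held it was not always so: among fragments of 4 to 10 kb the divergent and 1-start medians were 8 (6 to 12) and 9 (8 to 9) in the sparsest group and 12 (9 to 18) and 12 (11 to 12) in the densest. Baits with several starts but no divergent pair had a median of 12 (11 to 16) in fragments of 4 to 10 kb, above the divergent 11. The distance between the paired starts made little difference, with medians of 12, 12 and 14 contacts for starts up to 100, up to 300 and over 300 bases apart, and overlapping intervals.

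Promoter-promoter contacts, in which the other end is also a bait, made up 30.3% of the 12921 contacts of divergent baits (29.6 to 31.1%). The share was 26.9% (26.7 to 27.1%) for baits with 1 start and 32.8% (32.1 to 33.5%) for baits with several. At least 1 promoter contact was listed for 641 of 673 members (95.2%, 93.4 to 96.6%) and for 86.9% of baits with 1 start. Among baits with at least 10 contacts these shares were 97.4% (95.3 to 98.6%) and 94.9% (94.3 to 95.4%), and baits with several starts gave 97.8% (96.1 to 98.8%). The promoter-promoter share followed gene density. It was 41.8% (40.5 to 43.1%) for divergent baits and 41.7% for baits with 1 start where genes were densest, 25.2% and 25.1% in the middle group, and 19.0% (17.7 to 20.4%) and 14.1% (13.8 to 14.3%) where genes were sparsest. In that sparsest group baits with several starts gave 16.6% (15.3 to 18.0%), whose interval overlaps that of the divergent baits. Of the other ends of divergent baits, 48.9% lay within a protein-coding gene without holding a start and 20.3% (19.6 to 21.0%) lay outside protein-coding genes, against 29.1% (28.9 to 29.3%) outside for baits with 1 start and 21.9% (21.3 to 22.6%) for those with several.

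**Figure D4:**
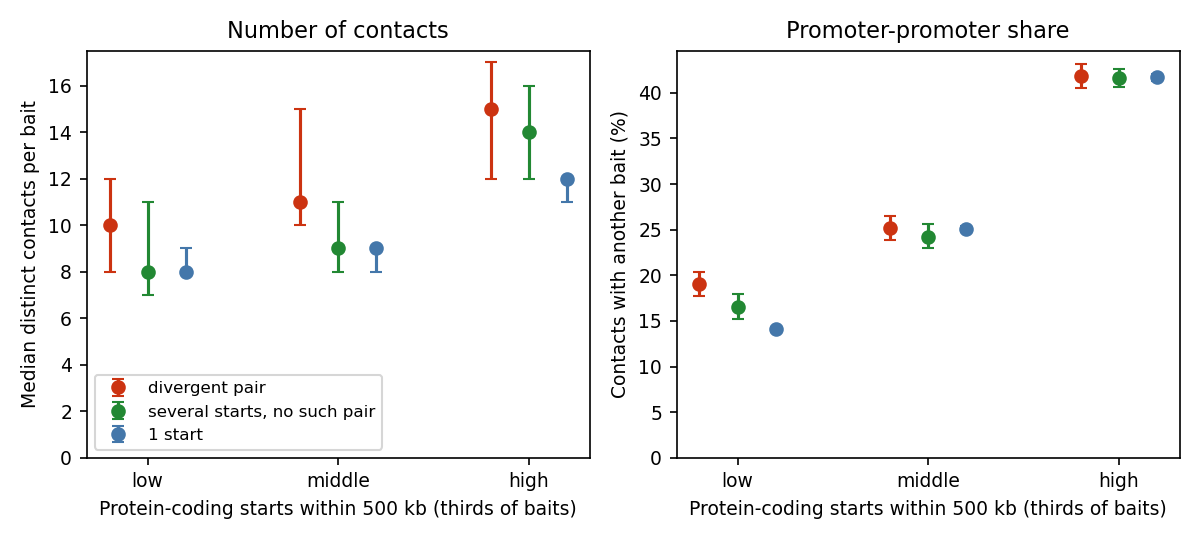
Median distinct contacts per bait (left panel) and percent of contacts whose other end is a bait (right panel) for 3 classes of autosomal baits, grouped by the number of protein-coding starts within 500 kb (limits at 12 and 24 starts). Bars are 95% intervals; divergent medians are highest in each group, and the promoter-promoter shares of the classes meet in the middle and dense groups.

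How far contacts reached did not set the divergent pairs apart from baits with 1 start at the median. The median midpoint distance was 161 kb (158 to 164 kb), as for baits with 1 start (161 kb, 160 to 162 kb), and 53.2% of contacts spanned over 150 kb. Baits with several starts but no divergent pair reached less far, with a median of 141 kb (139 to 144 kb) and 47.5% over 150 kb. Summed over members, contacts leaned to neither gene: on the 657 members with 1 pair, 49.7% (48.9 to 50.6%) of contacts lay on the side of the longer gene, although its median length was 31.4 kb and that of the shorter gene 10.4 kb. Single members were not always balanced. All 50 contacts of Srgap2/Fam72a lay on the side of its longer gene, Srgap2, and all 49 of Zswim7/Ttc19 on the side of its shorter gene, Zswim7. Contacts with a fragment inside a gene that starts on the bait were 11.2% of contacts of divergent baits (10.7 to 11.8%) and 8.59% (8.47 to 8.71%) for baits with 1 start, and the summed length of those genes had medians of 46.5 and 18.1 kb.

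Contacts over 1 Mb came largely from histone pairs. They were 3.90% of contacts of divergent baits (503 contacts, 3.58 to 4.24%) and 1.42% (1.37 to 1.47%) for baits with 1 start. Baits with several starts but no divergent pair lay between, at 2.97% (2.72 to 3.24%). The 9 members with replication histone genes, 8 of them in the cluster on chromosome 13, gave 299 of the 503. Without baits holding such a gene, the shares were 1.66% (1.45 to 1.90%) for divergent baits and 1.26% (1.22 to 1.31%) for baits with 1 start. Baits with several starts then gave 1.33% (1.17 to 1.52%), whose interval overlaps that of the divergent baits. Replication histone genes are near-identical copies, so reads can be assigned to the wrong copy, and contacts between them are uncertain; the part of shared sequence in these contacts was not tested.

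Contacts between members were listed too. Of the promoter partners of divergent baits, 7.09% (6.33 to 7.94%) were themselves divergent baits, against 5.10% (4.93 to 5.29%) of the partners of baits with 1 start. A contact between members enters the shares of divergent baits here from both of its ends, so their intervals are too narrow. Divergent baits are 3.80% of autosomal baits. Without replication histones the shares were 6.49% (5.74 to 7.34%) and 4.99% (4.81 to 5.17%). Baits with several starts but no divergent pair lay at 5.80% (5.19 to 6.47%), whose interval overlaps that of the divergent baits. By gene density, still without histones, divergent baits and baits with 1 start gave 7.02% (5.96 to 8.24%) and 5.03% (4.79 to 5.28%) in the densest group, while the intervals overlapped in the middle group (6.76% and 5.47%) and in the sparsest (4.42% and 4.21%). In the densest group baits with several starts gave 5.90% (5.19 to 6.71%), whose interval overlaps that of the divergent baits. There were 139 contacts between members, 119 of them with no histone pair. They joined 187 members (27.8%) into 73 groups, of which 50 were single pairs of baits and the largest held 7. From ZT0 to ZT18 the lists held 98, 92, 111 and 110 of these contacts, and 75 (54.0%) were listed at all 4 timepoints. Without histones 57 of 119 (47.9%) were listed at all 4, at a median distance of 152 kb. The matching share for promoter-promoter contacts of other baits is not given here. These shares therefore do not show that contacts between members were more persistent than other promoter-promoter contacts.

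The strongest contact between members linked the histone pairs Hist1h2bl/Hist1h2ai and Hist1h2ah/Hist1h2bk, 318 kb apart, with scores of 59.5, 61.1, 55.7 and 72.0 from ZT0 to ZT18. Hist1h2bl/Hist1h2ai also met Gm17658/Hist1h4d over 1865 kb, with scores of 70.4, 68.8, 63.1 and 66.8 in the same order. Its contacts with Hist1h2bf/Hist1h2ad and Hist1h2ac/Hist1h2bc spanned 1858 and 1968 kb and reached scores of 50.2 and 43.7. Outside the histones, Ciao1/Tmem127 met Gm10766/Stard7 over 26.8 kb with scores of 45.8, 34.5, 52.8 and 42.0; Ciao1 acts in iron-sulfur protein assembly and Stard7 carries lipid to mitochondria. Tmed7/Eif1a, with a translation initiation factor, met Atg12/Ap3s1, with the ubiquitin-like protein of autophagy, over 146 kb with scores of 31.9, 37.6, 38.8 and 39.0. All of these contacts were listed at every timepoint.

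All 4 lists held 33.0% of the contacts of divergent pairs (4268 of 12921, 32.2 to 33.8%), against 33.4% (33.2 to 33.6%) for baits with 1 start, and 34.0% were in 1 list alone. The 9 histone members, at 50.2%, raised this share. Without replication histones it was 32.2% (31.4 to 33.0%) against 33.3% (33.1 to 33.6%). Among baits with at least 10 contacts it was 34.1% (33.3 to 35.0%) against 35.4% (35.2 to 35.6%). Over all gene densities, both shares were slightly lower for divergent pairs than for baits with 1 start, with the intervals apart. Baits with several starts gave 33.5% (32.8 to 34.3%) without histones and 34.9% (34.1 to 35.7%) with at least 10 contacts. Both of these intervals overlapped the divergent ones. The direction was not the same at every gene density. With histones kept, divergent baits and baits with 1 start gave 29.6% and 32.9% in the sparsest group and 32.8% and 34.2% in the middle group. In the densest group the divergent share was the higher, at 35.4% against 33.3%. Among the 219 members with at least 20 contacts, persistence ranged widely. It was highest for Itgb1bp1/Cpsf3 (97 of 128 contacts, 75.8%), Ncdn/AU040320 (20 of 29, 69.0%) and E130018O15Rik/Hmx1 (15 of 22, 68.2%), and lowest for Ciao1/Tmem127 (2 of 32, 6.25%), Ddx49/Cope (1 of 20, 5%) and Ptcd2/Mrps27 (1 of 27, 3.70%). Ciao1/Tmem127 thus combined a strong, persistent contact with a nearby pair with 30 others that were missing from at least 1 list.

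The members with most contacts kept large numbers at every timepoint. Hist1h2bl/Hist1h2ai had 156 contacts at ZT0 and 164, 150 and 164 at the later timepoints (202 distinct, 115 of them over 1 Mb). Alg12/Creld2 (chr15:88649186-88651197), which encodes a mannosyltransferase of N-glycan assembly and a stress-induced protein of the endoplasmic reticulum, had 91, 90, 113 and 121 (136 distinct), so ZT12 and ZT18 were the higher pair. Its fragment of 2012 bases sent 112 of these contacts to the higher-coordinate side, and its partners included the starts of Tubgcp6, Hdac10 and Panx2.

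Cd3eap/Ppp1r13l (chr7:19937281-19949020), a subunit of RNA polymerase I beside an inhibitor of p53, had 112, 62, 86 and 109 contacts (135 distinct), lowest at ZT6. Itgb1bp1/Cpsf3 (chr12:21291083-21297725), an integrin-binding adaptor beside the nuclease that cuts pre-mRNA at the poly(A) site, had 110, 120, 112 and 112. Of its 128 distinct contacts 5 were with baits, the strongest with the start of Iah1 over 27.3 kb at scores of 24.4, 34.0, 28.0 and 30.6. Usp5/Cdca3, a deubiquitinase beside a regulator of mitotic entry, had 86, 83, 91 and 85 (116 distinct), with 33 promoter contacts that included the fragment of Tpi1, a glycolytic enzyme.

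Atxn1/5033430I15Rik (chr13:46057847-46062361) stood apart in where its contacts lay. It had 71, 33, 55 and 63 contacts (95 distinct), none of them with a bait, and 73 lay inside Atxn1, a gene of 410084 bases that encodes a transcriptional corepressor. Of the rest of the 10, Hist1h2ac/Hist1h2bc had 83, 89, 85 and 87, Ranbp10/Tsnaxip1 78, 71, 71 and 67, E130303B06Rik/4933405L10Rik 62, 66, 69 and 67, and Mrpl37/Cyb5rl 61, 60, 58 and 52. Ranbp10/Tsnaxip1 and E130303B06Rik/4933405L10Rik were also partners, 119 kb apart, with scores of 29.7, 29.6, 31.7 and 34.3. The 10 members together gave 9.26% of the contacts of divergent baits.

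**Figure D5:**
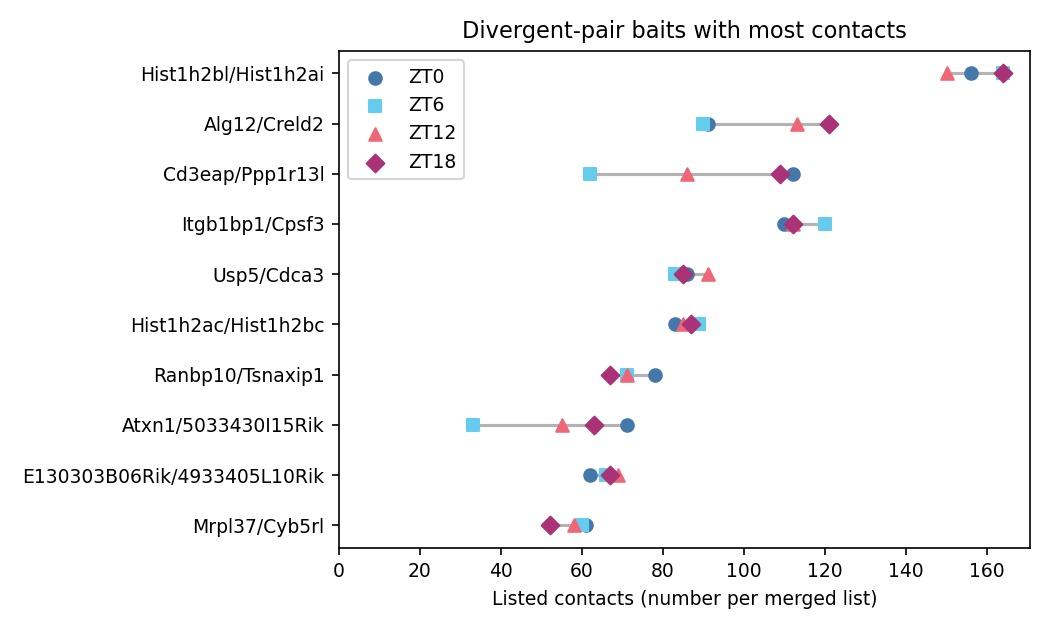
Number of listed contacts (horizontal axis) at each of the 4 timepoints for the 10 divergent baits with most distinct contacts, with grey lines from the lowest to the highest timepoint. Cd3eap/Ppp1r13l and Atxn1/5033430I15Rik spread most, from 62 to 112 and from 33 to 71 with ZT6 lowest, while Usp5/Cdca3 stays between 83 and 91; each point is 1 merged list with no replicate.

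The members among the head-to-head pairs of the textbooks had between 1 and 22 contacts. Of 16 such pairs, 5 were members, 9 had starts that overlap in the gene records and so fell outside the rule, Col4a3/Col4a4 (72 bases) was not on a listed bait, and Fen1/Tmem258 was not found under these names. In the order ZT0, ZT6, ZT12, ZT18, Atm/Npat had 15, 12, 15 and 11 contacts (22 distinct, 9 of them at all 4), among them the start of Acat1 over 73.1 kb at scores of 6.02, 8.47, 6.00 and 9.49. Mcm4/Prkdc had 3, 3, 3 and 2, and its strongest contact reached 933 kb to the fragment of Snai2, a zinc finger repressor, with scores of 20.5, 9.81, 16.4 and 24.7. Brca1/Nbr1, a repair gene beside an autophagy receptor, had 1, 1, 1 and 2. Hadha/Hadhb, whose sequence with the SP1 letters at 2 places is printed above, had 1, 0, 2 and 0, and Mrps12/Sars2 had 1 contact, at ZT0 and with a score of 5.08. At these numbers no difference between timepoints was detectable.

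Contact numbers differed between and within the gene lists. The median was 7 for the 25 baits of DNA replication and repair (2 to 67, highest Tsc2/Nthl1), 12 for the mitochondrial ribosome (1 to 84), 14.5 for the respiratory chain (4 to 59), 23 for the cytosolic ribosome (2 to 57) and 32.5 for RNA polymerases (3 to 53). The 5 baits of aminoacyl-tRNA synthetases (1 to 11), 6 of the proteasome (2 to 21) and 4 of chaperonins (2 to 27) had medians of 8, 11.5 and 4.5, and the 14 of Zfp genes (1 to 58) a median of 21. Polr2l/Tspan4, with a small subunit shared by RNA polymerases, had 39, 33, 27 and 27 contacts, and Lnx2/Polr1d 26, 23, 31 and 31. The 9 histone baits had a median of 47 (25 to 202).

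Differences between the lists labelled ZT0 and ZT12, and ZT6 and ZT18, were about as common among divergent pairs as among all baits. Numbers of contacts were divided by the list totals, and baits with at least 10 distinct contacts were compared. ZT12 was at least 2-fold above ZT0 for 22 of 390 members (5.64%, 3.75 to 8.39%; 3.89% of all autosomal baits) and ZT0 at least 2-fold above ZT12 for 12 (3.08%, 1.77 to 5.30%; 4.26% of all), together 8.72% against 8.15%. ZT18 was 2-fold above ZT6 for 18 (4.62%; 4.38% of all) and ZT6 above ZT18 for 13 (3.33%; 3.51% of all), together 7.95% against 7.9%. All intervals of the members held the share of all baits. In the list order of the study's table these comparisons would be ZT0 with ZT6 and ZT18 with ZT12. The lists that would then stand 12 h apart gave 34 of 390 members in each comparison (8.72%, 6.31 to 11.9%; 6.94% of all autosomal baits for ZT0 and ZT12, 7.93% for ZT6 and ZT18).

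With at least 20 contacts, 7 of 219 members differed 2-fold between ZT0 and ZT12 (3.20%; 3.72% of all autosomal baits) and 12 between ZT6 and ZT18 (5.48%, 3.16 to 9.33%; 3.68% of all). ZT12 was the higher for 5 (2.28%; 2% of all) and ZT0 for 2 (0.913%; 1.72% of all), and ZT18 was the higher for 9 (4.11%, 2.18 to 7.62%; 1.93% of all) and ZT6 for 3 (1.37%; 1.74% of all). The interval of the ZT18 count was the 1 among these 4 that did not hold the share of all baits. The pairs named from here to the end of the paragraph were chosen after their values were seen. Sec24a/Sar1b, whose genes both encode parts of the COPII coat of secretory vesicles, had 13 contacts at ZT0, followed by 27, 36 and 33, so ZT0 was low. 1110038D17Rik/Snrpd3, with a core protein of the spliceosome, had 5, 3, 16 and 17, and passed 2-fold in both comparisons, as did Arl16/Hgs with 7, 7, 15 and 15. Psenen/U2af1l4 had 28, 29, 42 and 60, and Hras1/Lrrc56 27, 20, 35 and 54, both highest at ZT18. Dnajb4/Fubp1 (15, 13, 7 and 9) and Hist1h2bh/Hist1h3f (26, 22, 12 and 13) were higher at ZT0 than at ZT12. These are counts of single merged lists, and a bait loses a contact when its score slips under 5.

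The timepoint with most contacts depended on how numbers were scaled. After division by list totals, 27.5% of members peaked at ZT0 (24.3 to 31.0%), 18.1% at ZT6, 23.2% at ZT12 and 31.2% at the last timepoint, ZT18 (27.8 to 34.8%), and other autosomal baits gave 31.4%, 21.1%, 21.0% and 26.5%. Dividing by totals breaks ties in favour of the shortest list, ZT0. With raw numbers the members gave 18.9%, 26.5%, 27.0% and 27.6% and other baits 21.0%, 28.7%, 25% and 25.3%. Among baits with at least 10 contacts the scaled shares were 23.8%, 20.8%, 22.6% and 32.8% (28.3 to 37.6%) for 390 members and 26.4%, 24.1%, 23.6% and 25.9% for the others. ZT18 was the most frequent timepoint for members in each of these counts. In raw numbers its interval (24.4 to 31.1%) overlapped those of ZT6 (23.3 to 29.9%) and ZT12 (23.8 to 30.5%). After scaling, ZT18 intervals of baits with several starts but no divergent pair were 27.2 to 33.1%, and 26.1 to 34.0% with at least 10 contacts. Both overlapped those of the members, so the ZT18 share did not set divergent pairs apart from these baits. With a score of at least 10 the most frequent timepoint for members was ZT0, at 39.5% (35.2 to 44.0%) against 31.1% at ZT18. At that score the median was 1 contact per member, and other baits were not counted. The lead of ZT0 there is therefore not read as a result about timing. If the lists follow the order of the study's table, the values given here for ZT6, ZT12 and ZT18 belong to ZT18, ZT6 and ZT12.

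Circadian genes were found at divergent pairs about as often as elsewhere. The study's list of circadian genes was chosen on RNA of the same experiment, so its labels are not independent of these livers. It held 106 of the 1363 genes of divergent pairs (7.78%, 6.47 to 9.32%) and 992 of the 15092 other genes (6.57%, 6.19 to 6.98%). In 588 pairs neither gene was listed, in 94 pairs 1 was, and in 7 pairs both were. The 99 baits with a listed gene had a median of 15 contacts (11 to 18) and the 574 without one 11 (10 to 13), with overlapping intervals.

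The list gives each gene an acrophase, the time of its highest RNA. In 3 of the 7 pairs with both genes listed, the acrophases were the same. These were Dclre1a/Nhlrc2 (ZT12), Erp44/Invs (ZT18) and E430025E21Rik/Nsmce2 (ZT6). Dclre1a/Nhlrc2, with a nuclease of crosslink repair, had 14, 20, 17 and 11 contacts from ZT0 to ZT18. E430025E21Rik/Nsmce2 had 5, 9, 5 and 6, and Erp44/Invs 1, 3, 2 and 2. In the other 4 the acrophases of the genes differed although their starts lay 330 bases apart or less. Alg12 was labelled ZT0 and Creld2 ZT18 (328 bases apart). Hnrpdl/Enoph1, labelled ZT6 and ZT18 (330 bases), had 28, 20, 26 and 20 contacts, the strongest with the Hnrnpd/4930524J08Rik pair over 60.7 kb at scores of 28.0, 25, 30.1 and 26.7. 2610024G14Rik/Polr2b, labelled ZT18 and ZT12 (63 bases), had 12, 11, 13 and 16, among them the fragment with the starts of the purine enzymes Paics and Ppat over 353 kb at 7.62, 6.66, 9.78 and 8.94. Dak/Ddb1, labelled ZT18 and ZT12 (136 bases), had 5, 5, 3 and 3.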

How the data were processed

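P-CHi-C libraries of mouse liver at 4 timepoints (3 pools of 2 livers each, 16 samples with the extra lane of pool A) were mapped and filtered by the authors with HiCUP, pools were merged, and contacts were called with CHiCAGO. Each deposited value is a CHiCAGO score of a fragment pair at a timepoint. Scores under 5 are not listed, which is no measurement of a low read number. The build is mm9 per the submitters' processing notes, and all 127672 listed autosomal fragments were identical to HindIII fragments of that reference. Read depth behind the lists and RNA levels were not analysed here. List totals were 146262 to 154775.

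Gene starts were taken from gene records of GENCODE vM1, at the end their strand gives. Contacts were treated as unordered pairs over the union of the 4 lists and counted from both ends. Baits are fragments in the first column of any list. Counts were made in python 3.11.15 (numpy 2.4.6, pandas 2.3.3), groups of contacting members were built with networkx 3.6.1, figures with matplotlib 3.10.9, and 95% intervals are Wilson intervals (scipy 1.17.1) or, for medians, from binomial order statistics. They cover counting error only, and contacts of 1 bait are not independent. With 1 list per timepoint no test was made. A score minimum also means that depth, which can differ between lists, changes how many contacts are listed. Counting was tested on simulated data with planted numbers of contacts.

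The members and the gene lists were chosen with earlier results of these data known, and the circadian list is the study's own. Named pairs are the textbook pairs, the 10 members with most contacts, the 6 strongest contacts between members, the 3 most and 3 least persistent members with at least 20 contacts, the pairs with both genes on the circadian list, and the pairs nearest the 1 kb limit, of which 1 is not reported here. Examples from gene lists, partner genes, members with all contacts on 1 side and members with a 2-fold difference were named after their values were seen. Alternatives are given in the closing section.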

Additional observations from a re-analysis of the deposited data

How the results depend on the processing

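No paired analysis was possible because each timepoint is 1 list made from all its pools, and for the same reason leaving out a pool was not possible. Of 56 alternatives computed, 25 stayed within the counting interval of the reported value and 31 did not. Each of these results is a value for the members and not a signed difference. Differences from other bait classes were not recomputed with these settings, except where given above. A score of at least 7 gave a median of 5 contacts per member, a promoter-promoter share of 35.8%, a median distance of 151 kb and 8.13% of promoter partners that were divergent baits. A score of at least 10 gave a median of 1 contact, also in fragments of 4 to 10 kb (1), 34.4% of contacts at all 4 timepoints, a promoter-promoter share of 41.5%, a median distance of 140 kb (139.6), 9.84% divergent partners, and most contacts at ZT0 for 39.5%, at ZT6 for 13.4% and at ZT12 for 16% of members. Contacts taken from the bait column alone gave a median of 10. Counting contacts whose other ends lay up to 10 kb apart as 1 gave 69.9% at all 4 timepoints. Pairs within 500 bases gave a promoter-promoter share of 29.5% and 6.28% divergent partners, and members with exactly 2 protein-coding starts gave 6.10% divergent partners, by fewer members in each case. Requiring a protein-coding start at the other end gave a promoter-promoter share of 27.7%, and the gap between fragments a median distance of 156 kb. Raw numbers gave most contacts at ZT0, ZT6, ZT12 and ZT18 for 18.9%, 26.5%, 27.0% and 27.6% of members, and the other order of lists gave 23.2% at ZT6, 31.2% at ZT12 and 18.1% at ZT18. With at least 20 contacts, 3.20% differed 2-fold between ZT0 and ZT12 and 5.48% between ZT6 and ZT18. Chosen after seeing the data were members with at least 10 contacts, which gave 23.8% with most contacts at ZT0, and baits without replication histones, which gave 1.66% of contacts over 1 Mb, and the other order of lists for the 2-fold differences, which gave 8.72% in each. The cause of these shifts was not tested beyond what the settings change by construction.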
